A study of Mus musculus with 15 samples.

Results

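RNA-Seq values of 10 genes that mark the fibroblasts of the meninges were compared between embryos with and without the K228E substitution of TBR1, a T-box transcription factor of cortical neurons. The genes were *Foxc1*, *Foxd1*, *Twist1*, *Tbx18*, *Aldh1a2*, *Cxcl12*, *Igf2*, *Slc6a13*, *Dcn*, and *Lum*, which were taken as a named list of non-collagen markers, and 10 of 10 were found among the 19475 deposited genes and passed the filter on low values. The data comprised 15 E16.5 embryos on a C57BL/6J background, with 5 WT, 5 Tbr1+/K228E (labelled Tbr1 hetero), and 5 Tbr1K228E/K228E (labelled Tbr1 homo) embryos, and each genotype had 3 females and 2 males. The substitution was knocked into exon 1 of *Tbr1*, and the neomycin cassette was removed with protamine-Cre mice, in which Cre acts in the male germ line, so that mutant embryos carried the allele in every tissue, the meninges included. The labels name the tissue as brain and the series as whole brain, whereas the study describes its samples as forebrain in its results, and how the meninges were handled at dissection is not given in the sources used here. Because the tissue was bulk, fewer fibroblasts and less RNA per fibroblast cannot be told apart.

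The meninges are the membranes that wrap the brain, and in the forebrain their fibroblasts arise from the neural crest. They lay down the basement membrane to which radial glia attach, and they signal to the cortex beneath. *Aldh1a2* encodes a retinaldehyde dehydrogenase that makes retinoic acid, which acts on cortical progenitors and neurons. *Cxcl12* encodes a chemokine that holds Cajal-Retzius cells and migrating interneurons near the surface through its receptor CXCR4. *Foxc1* and *Foxd1* encode forkhead factors of the head mesenchyme, *Twist1* a basic helix-loop-helix factor of neural crest mesenchyme, and *Tbx18* a T-box factor of mesenchyme and mural cells. *Igf2* encodes an imprinted growth factor, *Slc6a13* a GABA and taurine transporter, and *Dcn* and *Lum* the small leucine-rich proteoglycans decorin and lumican, which bind collagen fibrils.

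Because TBR1 binds T-box sites, the promoters of 4 members are shown, the 2 that hold the T-box element AGGTGT and 2 that do not. Whether TBR1 acts on any member was not tested. Each is the 250 bases before the annotated start in RefSeq on GRCm38.p6, written in the direction of transcription, with capitals for a match on either strand to AGGTGT, to the forkhead core TGTTTAC, to the retinoic acid receptor element AGGTCA, or to TATAAA. *Aldh1a2* lies on the plus strand at chr9:71215539-71215788, *Twist1* on the plus strand at chr12:33957421-33957670, *Cxcl12* on the plus strand at chr6:117168285-117168534, and *Tbx18* on the minus strand at chr9:87731261-87731510.
Aldh1a2: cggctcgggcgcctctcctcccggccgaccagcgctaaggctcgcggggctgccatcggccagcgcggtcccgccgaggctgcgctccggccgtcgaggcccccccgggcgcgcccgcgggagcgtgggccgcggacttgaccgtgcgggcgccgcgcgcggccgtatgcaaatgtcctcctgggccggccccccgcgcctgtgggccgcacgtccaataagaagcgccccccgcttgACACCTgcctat
Twist1: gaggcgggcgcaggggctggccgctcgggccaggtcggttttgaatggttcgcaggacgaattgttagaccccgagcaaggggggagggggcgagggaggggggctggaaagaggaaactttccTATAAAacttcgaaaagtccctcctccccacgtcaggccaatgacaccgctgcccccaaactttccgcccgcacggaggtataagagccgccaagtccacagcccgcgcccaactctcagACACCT
Cxcl12: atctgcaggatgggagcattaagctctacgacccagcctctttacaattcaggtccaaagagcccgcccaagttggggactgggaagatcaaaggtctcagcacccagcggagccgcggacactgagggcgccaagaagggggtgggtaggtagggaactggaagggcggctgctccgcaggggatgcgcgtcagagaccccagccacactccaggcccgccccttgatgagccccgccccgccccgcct
Tbx18: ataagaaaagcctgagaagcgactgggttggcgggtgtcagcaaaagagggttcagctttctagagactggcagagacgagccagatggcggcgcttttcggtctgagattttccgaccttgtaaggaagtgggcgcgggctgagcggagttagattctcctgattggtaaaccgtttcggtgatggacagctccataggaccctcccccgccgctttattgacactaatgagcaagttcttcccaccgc
RefSeq gave 13 promoters for 8 of the members. The T-box element was found in *Aldh1a2*, with its first base at position -12 from the start, and in *Twist1*, at position -6, and 11.8% of all 32851 promoters of the same length held it. The forkhead core was in none of the 13 promoters and in 3.17% of all. The element AGGTCA was in 1 promoter each of *Igf2* and *Slc6a13* and in 14.0% of all, and TATAAA was in *Twist1* alone, at position -126, and in 12.4% of all. The E-box CANNTG, which TWIST1 and its partners bind, was in 6 of the 13 member promoters, from 5 members, and in 66.2% of all promoters. E-boxes are not in capitals, and the one at position -11 of *Aldh1a2* overlaps its T-box element.

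The values were normalized read counts, that is, counts that the authors divided by size factors, and their sum per embryo is set by that scaling and does not give the depth. As a check of the labels, *Tbr1* averaged 3537 in WT, 6269 in Tbr1+/K228E, and 11366 in Tbr1K228E/K228E embryos, with SDs of 1049, 1532, and 3160 over 5 embryos each. It rose in Tbr1K228E/K228E against WT embryos by 1.69 on the log2 scale (adjusted p 0.00437, limma). 8 genes of neurons and the cortex, such as *Tubb3* and *Neurod6*, summed to between 119150 and 150290 per embryo. 8 hindbrain genes, mostly Hox genes, summed to between 183 and 3275. Among them, *Gbx2* and *En2* lay at 162 to 376 and at 8.34 to 1407. The Hox gene *Hoxa5* was listed at 0 in WT replicate 5, at 406 in WT replicate 4, and at 790 in Tbr1+/K228E replicate 1. *Krt5*, *Krt14*, *Myod1*, and *Myog* of skin and muscle did not exceed 5.36 in any embryo. Some other genes of skull, skin, and muscle were higher. *Krt15* reached 10.3 and *Actc1* 15.1, *Acan* lay at 10.4 to 100, *Ttn* at 105 to 267, and *Col2a1* at 1224 to 2038.5.

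Before the genotypes are compared, 3 embryos have to be set apart: WT replicate 3, Tbr1K228E/K228E replicate 3, and Tbr1K228E/K228E replicate 4. They were picked by the 3 lowest values of *Aldh1a2*, and they were the 3 lowest embryos for 8 of the 10 members, with *Dcn* and *Lum* as the exceptions. *Aldh1a2* is itself 1 of these 8, so its place in the count was fixed by the choice. The share of all genes that were lowest in the 3 embryos is not given here, for this count or for those of the other lists below. *Aldh1a2* stood at 2.18, 2.32, and 3.22 in them and at 128 to 679 in the other 12 embryos. No Tbr1+/K228E embryo was among them. The genotype comparisons are therefore also given without them, a choice made after the data had been seen and by the values of a member.

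The 3 embryos were low in other genes of the meninges and vessels as well. Of 16 other meningeal genes, 13 were lowest in the 3 embryos, and *Slc22a6*, an organic anion transporter of the leptomeninges, was listed at 0 in all 3 and at 161 to 812 elsewhere. *Col1a1*, the main fibrillar collagen of fibroblasts, was at no more than 23.4 in them and at 664 to 10912 elsewhere. *Col1a2* was at 139.8 to 165 against 1355 to 9866, and *Col3a1* at 52.3 to 109 against 1427 to 8865. The sum of the 16 genes ranged from 10303 to 46264 in WT, from 13572 to 29896 in Tbr1+/K228E, and from 7889 to 33332 in Tbr1K228E/K228E embryos, of which *Zic1*, also a gene of brain progenitors, made up 5518 to 7857 in the 3 embryos.
Of 10 genes of endothelial and mural cells, 8 were lowest in the same 3 embryos, but the drop in their sum was small, at 8587 to 8960 against 9870 to 15094 in the other 12. The drop differed between these genes. *Cdh5* held 38.8% to 43.6% of the median embryo in the 3 embryos, and *Rgs5* 81.2% to 84.8%. 8 choroid plexus genes summed to between 1115 and 5691 in the 3 embryos and to between 3960 and 25520 in the others. 7 microglial genes summed to between 802 and 1193 against 990 to 1633, 6 blood genes to between 28771 and 32876 against 30304 to 83192, and 14 genes of skull, skin, and muscle to between 1769 and 1880 against 1652 to 2455. These ranges overlapped, whereas those of the meningeal and the vessel genes did not. For the choroid plexus genes the overlap came from Tbr1K228E/K228E replicate 3, at 5691. WT replicate 3 and Tbr1K228E/K228E replicate 4 summed to 1127 and 1115, below all other embryos. *Ttr*, a choroid plexus gene, was at 314 and 29.2 in these embryos, at 4845 in Tbr1K228E/K228E replicate 3, and at 2361 to 22879 in the other 12. The part of tissue content in the differences described here was not tested.

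**Figure D1:**
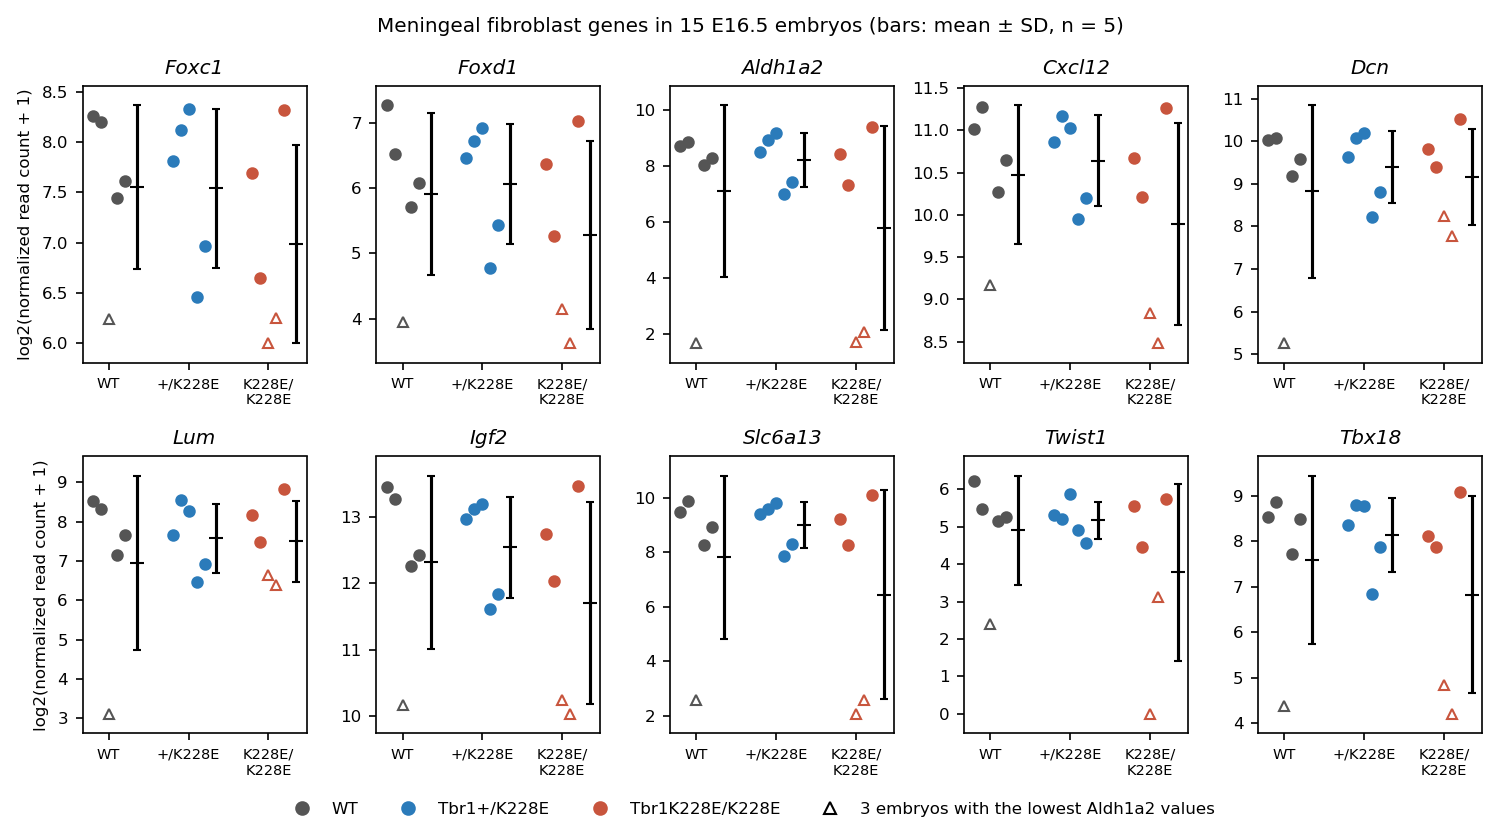
Values of the 10 meningeal fibroblast genes as log2(normalized read count + 1), 1 panel per gene on its own scale, with 1 point per embryo and the mean ± SD (n = 5) of each genotype beside it. Open triangles are the 3 embryos with the lowest Aldh1a2 values, which lie below the other 12 in all panels but those of Dcn and Lum, where 1 Tbr1+/K228E embryo is as low as the Tbr1K228E/K228E triangles.

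No member was called different in any of the 3 comparisons. Differences are on the scale of log2(normalized read count + 1), from limma with Benjamini-Hochberg adjustment over all 16507 genes tested, with an adjusted p-value under 0.05 as the threshold. In Tbr1+/K228E against WT embryos, 0 of 10 members were called, where 0.0% of all genes were, 0 members had an unadjusted p under 0.05 (1.79% of all genes), and the adjusted p was 0.999 for each. In Tbr1K228E/K228E against WT embryos, again 0 of 10 were called, against 0.127% of all genes, 0 had an unadjusted p under 0.05 (3.23% of all genes), and the adjusted p was 1.00 for each. In Tbr1K228E/K228E against Tbr1+/K228E embryos, 0 of 10 were called, against 0.0788% of all genes, 0 had an unadjusted p under 0.05 (3.3% of all genes), and the adjusted p was 0.996 to 0.998. Two-sided exact permutation tests of single members, 5 embryos against 5, gave p = 0.254 to 0.992, where the smallest possible p is 0.00794, and the values of the genotypes overlapped for 10 of 10 members in every comparison. Among all genes, 0.26% of those in Tbr1+/K228E against WT, 0.594% in Tbr1K228E/K228E against WT, and 0.878% in Tbr1K228E/K228E against Tbr1+/K228E embryos had values that did not overlap.
The median log2 difference of the members was 0.40 in Tbr1+/K228E against WT embryos, with 9 of 10 higher, and -0.61 in Tbr1K228E/K228E against WT embryos, with 8 of 10 lower. It was -0.81 in Tbr1K228E/K228E against Tbr1+/K228E embryos, with 10 of 10 lower. The medians over all tested genes were -0.0021, -0.0023, and 0.00042. Without the 3 embryos the member medians were -0.32, -0.09, and 0.19, with 10 of 10 lower, 7 of 10 lower, and 10 of 10 higher, and no member was called or had an unadjusted p under 0.05 (adjusted p 0.933 to 1.00 from limma). In these 12 embryos 0.0%, 0.0424%, and 0.0% of all genes were called in the 3 comparisons, and 3.62%, 2.51%, and 2.98% had an unadjusted p under 0.05. The direction of the median thus turned in both comparisons with Tbr1+/K228E embryos. The 3 embryos were picked by the values of a member, and none was Tbr1+/K228E. Leaving them out by itself raises the levels of the other genotypes against Tbr1+/K228E embryos, so the turn is no result apart from that choice. Leaving out WT replicate 3 alone gave medians of -0.32 and -1.13 in the comparisons with WT. Leaving out Tbr1K228E/K228E replicate 3 or 4 gave -0.28 or -0.22 against WT and -0.48 or -0.41 against Tbr1+/K228E embryos. The first 2 comparisons share the WT embryos, the last 2 the Tbr1K228E/K228E embryos, and the first and the last the Tbr1+/K228E embryos, so their directions are not independent of each other. Nor are the members within a comparison, since they varied together across embryos, so the counts higher or lower are not repeated evidence.

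**Figure D2:**
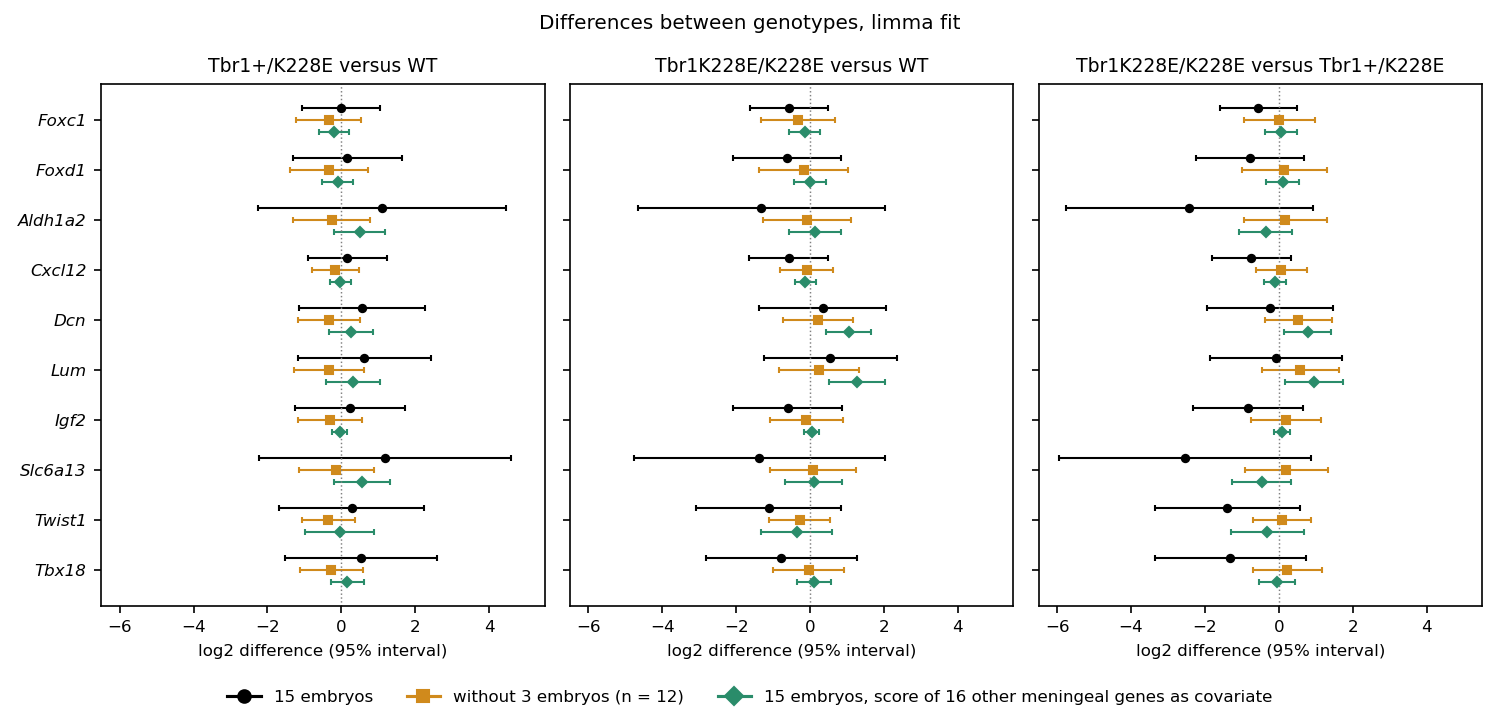
Log2 difference of each member between genotypes with its 95% interval from limma, for all 15 embryos (black circles), without the 3 embryos with the lowest Aldh1a2 values (orange squares), and for 15 embryos with the mean log2 value of 16 other meningeal genes as a covariate (green diamonds). The black intervals all include 0 and are widest for Aldh1a2 and Slc6a13, and the green intervals exclude 0 for Dcn and Lum in both comparisons with Tbr1K228E/K228E embryos.

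Among the signals to the cortex, *Aldh1a2* (ENSMUSG00000013584, chromosome 9, 71215789 to 71296243, plus strand) stood close to 0 in the 3 embryos. Its normalized read counts were 421, 465, 2.18, 259.6, and 312 in WT replicates 1 to 5. In Tbr1+/K228E replicates 1 to 5 they were 366, 491, 579, 128, and 172. In Tbr1K228E/K228E replicates 1 to 5 they were 346, 161, 2.32, 3.22, and 679. The lowest embryo was thus a WT embryo and the highest a Tbr1K228E/K228E embryo. Group levels were 292 ± 182, 347 ± 196, and 238 ± 284 (SD, n = 5 each). The log2 difference was 1.10 in Tbr1+/K228E (95% interval -2.24 to 4.45) and -1.32 in Tbr1K228E/K228E embryos (-4.66 to 2.03) relative to WT, intervals that leave room for large changes in either direction. Without the 3 embryos these were -0.26 (-1.30 to 0.78) and -0.08 (-1.26 to 1.10). The difference between Tbr1K228E/K228E and WT embryos was -2.68 without WT replicate 3 alone, and -0.30 or -0.39 without Tbr1K228E/K228E replicate 3 or 4.

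*Cxcl12* (ENSMUSG00000061353, chromosome 6, 117168535 to 117181367, plus strand) kept more of its level in the 3 embryos. Its normalized read counts were 2063, 2482, 575, 1238.5, and 1598 in WT replicates 1 to 5. In Tbr1+/K228E replicates 1 to 5 they were 1854, 2298, 2091.5, 985, and 1174. In Tbr1K228E/K228E replicates 1 to 5 they were 1624, 1183, 459, 356, and 2452. The 3 low embryos held 22.3% to 36.0% of the median embryo, where *Aldh1a2* held 0.698% to 1.03%. The log2 difference from WT was 0.16 (-0.90 to 1.23) in Tbr1+/K228E and -0.58 (-1.65 to 0.48) in Tbr1K228E/K228E embryos. Its receptors, *Cxcr4*, which carries the signal into cells, and *Ackr3*, which clears the ligand, did not share the low values, and 0 of 2 passed the test in any comparison. *Cxcr4* lay between 735 and 863 in the 3 embryos and between 652 and 987 in the others, and *Ackr3* between 590.0 and 753 and between 482 and 807.

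*Igf2* (ENSMUSG00000048583, chromosome 7, 142650766 to 142666816, minus strand) was the member with the highest level per length, with a median of 964 per kb of exon. Its normalized read counts were 11199, 9916, 1141.5, 4917, and 5516 in WT replicates 1 to 5. In Tbr1+/K228E replicates 1 to 5 they were 8050.1, 8881, 9438.5, 3122, and 3649. In Tbr1K228E/K228E replicates 1 to 5 they were 6859, 4213, 1207, 1042, and 11400. The 3 low embryos held 18.9% to 21.9% of the median embryo. The log2 difference from WT was 0.23 (-1.25 to 1.72) in Tbr1+/K228E and -0.61 (-2.09 to 0.87) in Tbr1K228E/K228E embryos. The library kit does not mark strand. Reads from sequence that *Igf2* shares with the antisense transcript *Igf2os* or with *Gm49394*, which overlap the gene, therefore cannot be told apart from its own.

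The other genes of these pathways did not pass the test in any comparison. Of 15 retinoic acid genes tested, 0 rose and 0 fell in each of the 3 comparisons, and the median log2 difference was 0.04, -0.08, and -0.12. *Rdh10*, which makes retinaldehyde from retinol, lay between 417 and 496 in the 3 low embryos and between 487 and 615 in the others. *Rxra*, a receptor that pairs with the retinoic acid receptors, was at 586 to 636 against 680.5 to 845, and *Dhrs3*, which turns retinaldehyde back to retinol, at 134 to 196 against 153 to 309. *Cyp26b1*, which degrades retinoic acid, ranged from 350.0 to 3132 over all embryos. Of 13 genes of insulin-like growth factor signalling, 0 rose and 0 fell, with medians of 0.02, -0.06, and -0.11. The growth factor receptor *Igf1r* lay between 2202 and 2467 in the 3 low embryos and between 2001 and 2406 in the others, and the scavenger receptor *Igf2r* between 3090.4 and 3127 and between 2797 and 3453. *Igfbp2*, a binding protein also made by brain progenitors and choroid plexus, was the 1 gene of the 13 that was lowest in the 3 embryos, at 1715 to 1961 against 2278 to 3707. *Igfbp5*, another binding protein, differed by -0.38 in Tbr1K228E/K228E against WT embryos, and the ligand *Igf1* by -0.40 (adjusted p 1.00 each, limma).

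Among the transcription factors, *Tbx18* (ENSMUSG00000032419, chromosome 9, 87702800 to 87731260, minus strand) showed the widest gap between the 3 low embryos and the rest. Its normalized read counts were 371, 465, 19.7, 211, and 357 in WT replicates 1 to 5. In Tbr1+/K228E replicates 1 to 5 they were 329, 444, 440.4, 114, and 232. In Tbr1K228E/K228E replicates 1 to 5 they were 277, 235, 27.6, 17.3, and 543. The log2 difference from WT was 0.53 (-1.52 to 2.58) in Tbr1+/K228E and -0.77 (-2.82 to 1.27) in Tbr1K228E/K228E embryos. The long non-coding *D030062O11Rik* overlaps *Tbx18*, and without strand the reads from sequence that they share cannot be told apart.
*Foxc1* (ENSMUSG00000050295, chromosome 13, 31806633 to 31812476, plus strand) had the smallest gap, with 63.0 to 75.4 in the 3 embryos and 87.1 to 321 in the others. It ranged from 74.8 to 306 in WT, from 87.1 to 321 in Tbr1+/K228E, and from 63.0 to 318 in Tbr1K228E/K228E embryos. *Foxd1* (ENSMUSG00000078302, chromosome 13, 98354242 to 98359305, plus strand) was at 11.3 to 16.7 in the 3 embryos and at 26.6 to 154 in the others. Its mean was 75.4 ± 51.8 in WT, 76.4 ± 40.4 in Tbr1+/K228E, and 55.4 ± 49.9 in Tbr1K228E/K228E embryos (SD, n = 5 each).
*Twist1* (ENSMUSG00000035799, chromosome 12, 33957671 to 33959829, plus strand) was the member with the lowest counts, with a mean of 38.6 ± 24.8 in WT, 36.8 ± 13.4 in Tbr1+/K228E, and 25.4 ± 23.0 in Tbr1K228E/K228E embryos (SD, n = 5 each). It was listed at 0 in Tbr1K228E/K228E replicate 3, at 4.24 and 7.76 in the other low embryos, and at 20.9 to 73.8 elsewhere. The log2 differences of these 3 genes from WT lay between -0.02 and 0.27 in Tbr1+/K228E and between -1.12 and -0.57 in Tbr1K228E/K228E embryos, with 95% intervals that included 0.
Of 16 related factors and partners, among them other forkhead and T-box genes, *Twist2*, and the E proteins that pair with TWIST1, 0 rose and 0 fell in the 3 comparisons, and 6 were lowest in the 3 embryos. *Foxf1*, a forkhead gene of mesenchyme, was at 3.56 to 12.3 in them and at 15.8 to 58.6 elsewhere. *Tbx15*, a mesenchymal T-box gene, was also among them, at 9.53 to 19.4 against 26.2 to 161. *Foxc2*, the paralog of *Foxc1*, was another, listed at 0 in WT replicate 3 and at 12.6 to 135 in the 12 embryos.

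The transporter *Slc6a13* (ENSMUSG00000030108, chromosome 6, 121300227 to 121337733, plus strand) behaved much like *Aldh1a2*. It was at 3.20 to 4.99 in the 3 embryos and at 235 to 1109 in the other 12. Its mean was 488 ± 360 in WT, 578 ± 290 in Tbr1+/K228E, and 404 ± 464 in Tbr1K228E/K228E embryos (SD, n = 5 each). The log2 difference from WT was 1.17 (-2.23 to 4.58) in Tbr1+/K228E and -1.37 (-4.77 to 2.03) in Tbr1K228E/K228E embryos, and without the 3 embryos it was -0.14 and 0.07. Leaving out WT replicate 3 alone gave -2.68 in Tbr1K228E/K228E embryos, and leaving out Tbr1K228E/K228E replicate 3 or 4 gave -0.28 or -0.40. Of 5 related transporters, such as the taurine transporter *Slc6a6* and the creatine transporter *Slc6a8*, 0 rose, 0 fell, and 0 were lowest in the 3 embryos. *Slc6a12*, a betaine and GABA transporter, came close, with 1.78, 2.73, and 7.99 in them and 6.78 to 65.6 elsewhere.

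The proteoglycan genes *Dcn* and *Lum* departed from the other members. *Dcn* (ENSMUSG00000019929, 97479609 to 97518143) and *Lum* (ENSMUSG00000036446, 97565128 to 97572703) are neighbours on the plus strand of chromosome 10, with 46984 bases between them. The normalized read counts of *Dcn* were 1042, 1074, 37.1, 579, and 763 in WT replicates 1 to 5. In Tbr1+/K228E replicates 1 to 5 they were 791, 1079, 1177, 297, and 448. In Tbr1K228E/K228E replicates 1 to 5 they were 909, 675, 303, 219, and 1476.5. WT replicate 3 was thus far below every other embryo, whereas Tbr1K228E/K228E replicates 3 and 4 lay close to Tbr1+/K228E replicate 4.
*Lum* had the same kind of pattern in the low embryos. Its normalized read counts were 366, 319, 7.63, 141, and 202 in WT replicates 1 to 5. In Tbr1+/K228E replicates 1 to 5 they were 199.7, 375, 309, 86.8, and 121. In Tbr1K228E/K228E replicates 1 to 5 they were 284, 178, 98.2, 82.4, and 456. As a share of the median embryo, *Dcn* and *Lum* stood at 4.86% and 3.82% in WT replicate 3, at 39.8% and 49.1% in Tbr1K228E/K228E replicate 3, and at 28.7% and 41.3% in Tbr1K228E/K228E replicate 4. *Tbx18* stood at 7.13%, 9.96%, and 6.27% in the same 3 embryos. The ratio of *Dcn* to *Lum* stayed between 2.65 and 4.86 in all 15 embryos. The ratio of *Dcn* to *Tbx18* was 11.0 and 12.6 in Tbr1K228E/K228E replicates 3 and 4, 1.88 in WT replicate 3, and 1.93 to 3.28 in the other 12.
Relative to WT, the log2 difference of *Dcn* was 0.57 (-1.14 to 2.27) in Tbr1+/K228E and 0.34 (-1.37 to 2.04) in Tbr1K228E/K228E embryos, and that of *Lum* was 0.62 (-1.18 to 2.42) and 0.54 (-1.25 to 2.34). Leaving out WT replicate 3 turned the difference between Tbr1K228E/K228E and WT embryos to -0.56 for *Dcn* and -0.42 for *Lum*.

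**Figure D3:**
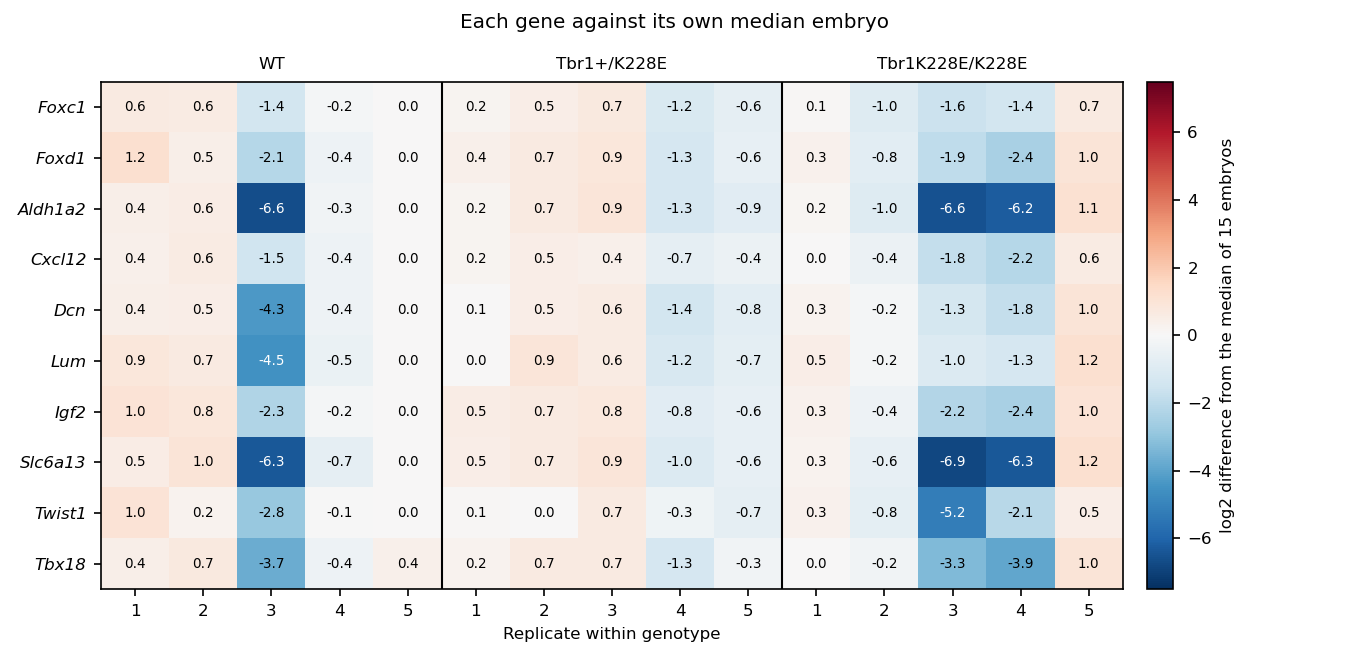
Log2 difference of each member in each embryo from the median of that member over the 15 embryos, on log2(normalized read count + 1), with the value written in each cell. WT replicate 3 and Tbr1K228E/K228E replicates 3 and 4 are low in every row, and the cells of Dcn and Lum are less low in the 2 Tbr1K228E/K228E embryos than in the WT embryo.

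Other proteoglycans of the same family did not show this pattern. *Fmod*, fibromodulin, stood at 8.77 in WT replicate 3, 9.29 in Tbr1K228E/K228E replicate 3, and 10.2 in Tbr1K228E/K228E replicate 4, against 92.4 to 674 in the other 12. *Ogn*, osteoglycin, stood at 58.5, 66.6, and 42.2 in these embryos, and *Bgn*, biglycan, at 448, 461, and 336. *Kera* and *Epyc*, which lie beyond *Lum* on chromosome 10, were nearly silent, at no more than 3.54 and 26.9 in any embryo. Of the 8 tested genes of the family other than *Dcn* and *Lum*, 0 rose and 0 fell in the 3 comparisons, with a median log2 difference of 0.09, -0.64, and -0.67. *Podn*, podocan, differed by -0.52 and *Epyc* by -0.87 in Tbr1K228E/K228E against WT embryos (adjusted p 1.00 each, limma).

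With the mean log2 value of the 16 other meningeal genes as a covariate, *Dcn* and *Lum* were the 2 members with an unadjusted p under 0.05. In Tbr1K228E/K228E against WT embryos the log2 difference of *Dcn* was then 1.05 (95% interval 0.44 to 1.66, adjusted p 0.524) and that of *Lum* was 1.27 (0.51 to 2.03, adjusted p 0.592), by limma over all genes. Neither passed the threshold, where 0.121% of all genes were called and 3.37% had an unadjusted p under 0.05. Against Tbr1+/K228E embryos the differences were 0.78 (0.15 to 1.40, adjusted p = 0.995) and 0.96 (0.18 to 1.74, adjusted p = 0.995), in a fit where 3.73% of all genes had an unadjusted p under 0.05. In the same fit without the 3 low embryos, added after the data had been seen, the difference from WT was smaller, at 0.43 (0.12 to 0.73, adjusted p = 1.00) for *Dcn* and 0.49 (0.13 to 0.85, adjusted p = 1.00) for *Lum*. From Tbr1+/K228E embryos it was 0.40 (0.11 to 0.69) and 0.44 (0.09 to 0.78). That fit was read for *Dcn* and *Lum* alone, and its share of all genes under either threshold is not given here. It therefore cannot show whether these intervals set *Dcn* and *Lum* apart from other genes. The other 8 members differed from WT by -0.36 to 0.55 with the covariate. *Bgn* and *Ogn* are themselves among the 16 genes.

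**Figure D4:**
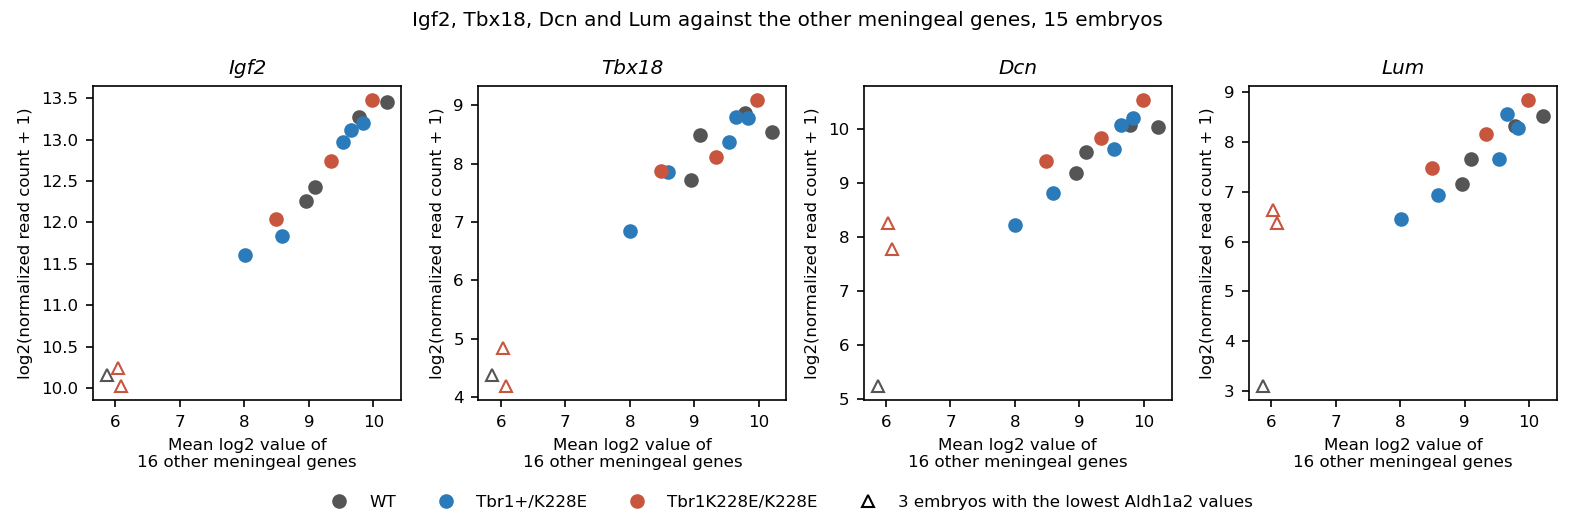
Log2(normalized read count + 1) of Igf2, Tbx18, Dcn, and Lum against the mean log2 value of 16 other meningeal genes, 1 point per embryo, coloured by genotype, with open triangles for the 3 embryos with the lowest Aldh1a2 values. The triangles of the 2 genotypes lie together for Igf2 and Tbx18, whereas for Dcn and Lum the WT triangle lies below the 2 Tbr1K228E/K228E triangles.

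The members were among the most variable genes of the data. The residual SD around the genotype means, on the log2 scale, ran from 0.87 in *Foxc1* to 2.85 in *Slc6a13*, and 10 of 10 members lay above the 95th percentile of all tested genes, 0.81, where the median gene had 0.15. The SD within Tbr1+/K228E embryos, which lack an embryo of the lowest kind, was 0.49 to 0.95. It was 0.81 to 3.06 within WT and 0.99 to 3.83 within Tbr1K228E/K228E embryos. The other meningeal genes took up nearly all of this spread. With their mean as a covariate, the residual SD was 0.16 in *Igf2* to 0.77 in *Twist1*, which left 1.76% of the residual variance in *Igf2*, 4.16% in *Aldh1a2*, 6.72% in *Cxcl12*, 12.4% in *Dcn*, and 22.3% in *Twist1*. For the median gene 99.96% was left.

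**Figure D5:**
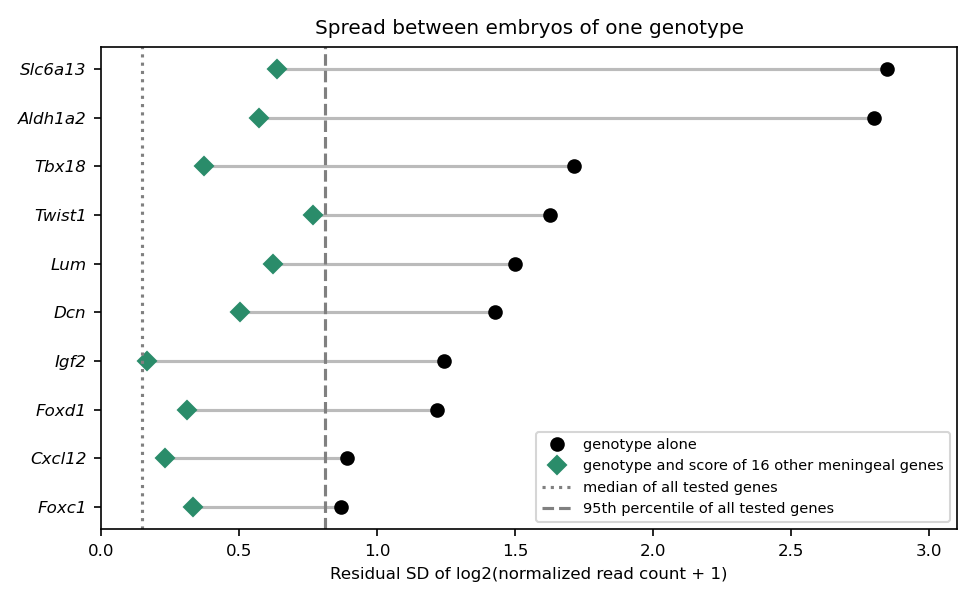
Residual SD of log2(normalized read count + 1) of each member between embryos of a genotype, without (black circles) and with (green diamonds) the mean log2 value of 16 other meningeal genes as a covariate, beside the median and the 95th percentile over all tested genes without the covariate. The black circles all lie above the 95th percentile and the green diamonds all below it.

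The members also varied together outside the 3 low embryos. Because those embryos form a cluster of their own, the relation was described over the other 12 alone, as a description without a test, and the 12 embryos share the tissue preparation and the scaling. Each member was set against the mean standardized log2 value of the other 9. Pearson r was highest for *Igf2*, at 0.98 (Spearman rho 0.98), and lowest for *Twist1*, at 0.79 (rho 0.85), and without the 2 embryos farthest from the median it ran from 0.76 to 0.97. The spread of levels in these 12 embryos was 2.52-fold for *Cxcl12* and 5.78-fold for *Foxd1* from the lowest to the highest embryo. Tbr1K228E/K228E replicate 5 was among the 3 highest embryos for 10 of 10 members, and Tbr1+/K228E replicate 3 for 6.
Over the same 12 embryos, the members followed the 16 other meningeal genes (r = 0.98, rho = 0.97) and the 10 endothelial and mural genes (r = 0.97, rho = 0.93) most closely. For blood genes r was 0.75 (rho 0.71), and for choroid plexus genes 0.69 (rho 0.69). For microglial genes r was 0.55 (rho 0.50), for genes of skull, skin, and muscle 0.50 (rho 0.49), and for cortical neuron genes 0.37 (rho 0.18). For hindbrain genes r was -0.00036 (rho -0.07). Without the 2 embryos farthest from the median, r stayed high for the other meningeal genes (0.96) and the endothelial and mural genes (0.98), and was 0.76 for blood, 0.54 for choroid plexus, and 0.40 for microglial genes. It moved to 0.79 for cortical neuron genes, to 0.25 for genes of skull, skin, and muscle, and to -0.38 for hindbrain genes, so that these 3 values rested on those embryos.
Over all 15 embryos and after the genotype means were taken out, the 5 genes with the most similar pattern were *Islr*, *Fmod*, *Colec12*, *Col6a1*, and *Tgm2*, with r of 0.99 each. *Islr* ranged from 73.7 in Tbr1K228E/K228E replicate 3 to 1083 in WT replicate 1, and *Colec12*, a scavenger receptor, from 124 in WT replicate 3 to 1619 in Tbr1K228E/K228E replicate 5. *Col6a1*, a chain of collagen VI, ranged from 73.4 to 1714, and *Tgm2*, a transglutaminase, from 40.1 to 481. These 5 genes were chosen for this likeness, so it is no support for it.

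Per kb of exon, the median levels of the members ran from 964 in *Igf2* through 195 in *Cxcl12*, 167 in *Slc6a13*, 138 in *Aldh1a2*, 131 in *Dcn*, 81.6 in *Lum*, 58.7 in *Tbx18*, 33.4 in *Foxc1*, and 22.1 in *Twist1* to 13.1 in *Foxd1*. *Igf2* lay above *Cxcl12* in 15 of 15 embryos and *Dcn* above *Lum* in 15 of 15. *Cxcl12* lay above *Slc6a13* in 10 of 15 embryos and *Aldh1a2* above *Dcn* in 9 of 15, so the order of these neighbours was not settled by the spread between embryos. The other neighbours in the order kept their places in 12 to 14 of 15 embryos. Within each gene, the genotype means differed by less than the SD between embryos.

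Sex was balanced across the genotypes and made no difference that passed the test. The male minus female log2 difference of the members, with genotype in the fit, ran from -0.52 to 0.29, with adjusted p of 0.756 to 0.999 from limma, and 0 of 10 members were called, against 0.0788% of all genes. The smallest unadjusted p of a member was 0.384 (limma), where 11.0% of all genes were under 0.05. No genotype difference that depended on sex passed the test in any of 20 interaction terms (smallest adjusted p 0.788 from limma). These fits hold the 3 low embryos, and the interval of *Aldh1a2* in Tbr1+/K228E embryos was -10.9 to 4.10. The 2 Tbr1+/K228E males lay below the median embryo for 10 of 10 members, and the 3 females for 0. The WT males, replicates 4 and 5, lay below it for 10 and 0. The Tbr1K228E/K228E male of replicate 5 lay above it for 10.

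Of the 6 genes of Cajal-Retzius cells, which lie under the meninges and carry CXCR4, 1 passed the test. *Reln*, the ligand reelin, fell by 0.56 on the log2 scale in Tbr1K228E/K228E against WT embryos (adjusted p 0.000603, limma) and by 0.47 against Tbr1+/K228E embryos (adjusted p 0.00707, limma), and it was not low in the 3 embryos as a group, at 7161 to 10726 against 6444 to 10905 in the other 12. *Ndnf* differed by -1.01 from WT embryos without passing the threshold (adjusted p = 0.301, limma).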

How the data were processed

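RNA-Seq was measured in 15 mouse embryos (5 per genotype, 3 females and 2 males each), grouped by the sample labels. The libraries were made with a TruSeq kit that does not mark strand. The authors estimated abundance with Salmon 0.11.2 against GRCm38, used tximport for gene-level values, and deposited counts divided by DESeq2 1.22.2 size factors, a normalized signal that is not whole reads, so no count model was fitted and the depth per embryo is not given by the values. 

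Gene symbols and coordinates came from GENCODE M21 (19469 of 19475 identifiers matched), and promoters from RefSeq. Of these, 16507 with a mean value of 5 or more entered limma 3.58.1 (R 4.3.3; lmFit, eBayes with trend) on log2(value + 1), which understates changes of low genes, with all 15 embryos in one fit and Benjamini-Hochberg adjustment over all tested genes (threshold 0.05). Single members were also compared by an exact permutation test (252 splits). On simulated data for Tbr1K228E/K228E against WT, 158 of 200 genes given a log2 change of 1 were recovered among 16507, with 8 false calls. The changed genes were drawn from all tested genes, with a median residual SD of 0.15, and had the same spread in each genotype. The members had residual SDs of 0.87 to 2.85, so this recovery does not give that of the members. P-values measure the spread between embryos of 1 genotype. The labels do not say which embryos were littermates.

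The members, marker lists, and motifs were chosen with earlier results of these data known. The lists are of retinoic acid, CXCL12 receptor, insulin-like growth factor, proteoglycan, transcription factor, and transporter genes, and of markers of other cell types. *Cyp26c1* and *H19* were also listed but were not found under these symbols among the deposited genes. Named genes are the members, *Tbr1*, the genes past the threshold in each list, the 2 genes of each list with the smallest unadjusted p in Tbr1K228E/K228E against WT, a fixed set of partners, and the 5 most similar genes, of which the text prints those that bear on the members. *Slc22a6*, *Zic1*, *Fmod*, *Ogn*, *Kera*, *Foxc2*, *Slc6a12*, *Twist2*, *Neurod6*, *Krt5*, *Krt14*, *Krt15*, *Myod1*, *Myog*, *Actc1*, *Col2a1*, *Gbx2*, and *En2* are named here with their values already known. Alternatives tried were other pseudocounts, filters, and scalings, sex, a replicate block, robust eBayes, the 2 compared genotypes alone, the meningeal covariate, and leaving out embryos.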

Additional observations from a re-analysis of the deposited data

Results flagged for a closer look

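6 of the 30 gene and genotype groups held an embryo whose gap to its nearest neighbour was large against the range of the group on the log2 scale (Dixon's test at 95% for 5 embryos), and in all 6 it was WT replicate 3. Chance alone flags about 1 in 20 groups, and the members are not independent of each other. The values were 2.18 for *Aldh1a2*, 37.1 for *Dcn*, 7.63 for *Lum*, 4.99 for *Slc6a13*, 4.24 for *Twist1*, and 19.7 for *Tbx18*. Tbr1K228E/K228E replicates 3 and 4 were not flagged, since each was the nearest neighbour of the other for most members.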

How the results depend on the processing

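None of 661 recomputed differences of the members had an adjusted p under 0.05 (smallest 0.524, limma), over 13 alternatives and 15 fits that left out 1 embryo each. Directions held under the pseudocounts, filters, scalings, sex, replicate block, robust eBayes, and the compared genotypes alone, but not in the fits named here, and the cause was not tested. *Twist1*, with the lowest counts, moved in size with the pseudocount, from -1.12 to -1.76 (pseudocount 0.1) or -0.56 (pseudocount 10) in Tbr1K228E/K228E against WT embryos. Without the 3 embryos with the lowest *Aldh1a2* values, the log2 difference changed sign in Tbr1+/K228E against WT embryos to -0.33 for *Foxd1*, -0.26 for *Aldh1a2*, -0.16 for *Cxcl12*, -0.33 for *Dcn*, -0.34 for *Lum*, -0.31 for *Igf2*, -0.14 for *Slc6a13*, -0.35 for *Twist1*, and -0.27 for *Tbx18*. It changed sign in Tbr1K228E/K228E against WT embryos to 0.071 for *Slc6a13*. It changed sign in Tbr1K228E/K228E against Tbr1+/K228E embryos to 0.013 for *Foxc1*, 0.15 for *Foxd1*, 0.18 for *Aldh1a2*, 0.072 for *Cxcl12*, 0.53 for *Dcn*, 0.58 for *Lum*, 0.21 for *Igf2*, 0.21 for *Slc6a13*, 0.076 for *Twist1*, and 0.23 for *Tbx18*. With the covariate of 16 other meningeal genes it changed sign in Tbr1+/K228E against WT embryos to -0.10 for *Foxd1*, -0.028 for *Cxcl12*, -0.042 for *Igf2*, and -0.049 for *Twist1*. It changed sign in Tbr1K228E/K228E against WT embryos to 0.0035 for *Foxd1*, 0.13 for *Aldh1a2*, 0.040 for *Igf2*, 0.097 for *Slc6a13*, and 0.11 for *Tbx18*. It changed sign in Tbr1K228E/K228E against Tbr1+/K228E embryos to 0.050 for *Foxc1*, 0.10 for *Foxd1*, 0.78 for *Dcn*, 0.96 for *Lum*, and 0.082 for *Igf2*. With both changes, the differences from Tbr1+/K228E embryos were 0.40 for *Dcn* and 0.44 for *Lum*, the only members read in that fit. Leaving out 1 embryo at a time moved the log2 difference in Tbr1+/K228E against WT embryos from -0.34 to 0.25 for *Foxc1*, -0.33 to 0.50 for *Foxd1*, -0.26 to 1.54 for *Aldh1a2*, -0.16 to 0.37 for *Cxcl12*, -0.33 to 0.88 for *Dcn*, -0.34 to 1.01 for *Lum*, -0.31 to 0.52 for *Igf2*, -0.14 to 1.69 for *Slc6a13*, -0.35 to 0.61 for *Twist1*, and -0.27 to 0.86 for *Tbx18*, in Tbr1K228E/K228E against WT embryos from -0.56 to 0.68 for *Dcn* and -0.42 to 0.94 for *Lum*, and in Tbr1K228E/K228E against Tbr1+/K228E embryos from -0.41 to 0.20 for *Lum* and -0.57 to 0.11 for *Dcn*. The other 8 members kept their sign in Tbr1K228E/K228E against WT embryos but moved by over 1.5 times, from -2.68 to -0.30 for *Aldh1a2*, -2.68 to -0.28 for *Slc6a13*, and -1.75 to -0.18 for *Twist1*, for example. In Tbr1+/K228E against WT embryos the sign of 9 members turned without WT replicate 3.

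The number of all genes past the threshold in Tbr1K228E/K228E against WT embryos, 21 in 15 embryos, was 12 with the 2 compared genotypes alone, 7 without the 3 embryos, and 12 to 21 when 1 embryo was left out. Between Tbr1K228E/K228E and Tbr1+/K228E embryos it was 13, and it was 2 with the replicate block, 0 without the 3 embryos (492 genes, 2.98%, at an unadjusted p under 0.05, limma), and 6 to 8 when 1 embryo was left out. Same-numbered embryos share a number and sex only, and their deviations correlated with r of -0.21 to 0.22, 0.024 to 0.51, and -0.23 to 0.35 in the 3 comparisons. The replicate block left 16 genes past the threshold in Tbr1K228E/K228E against WT embryos and 0 members in any comparison. With 5 embryos per genotype, the 95% intervals of *Aldh1a2* and *Slc6a13* are the widest, so that differences of several-fold were not detectable in them, and the values of 0 to 8 in the low embryos rest on few reads.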
